A study of Mus musculus with 8 samples.

Results

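Coenzyme A is the carrier on which cells hold acetyl and fatty acyl groups, and it is made from pantothenate, a B vitamin, by a short chain of enzymes. The chain is encoded in the mouse by Pank1, Pank2, Pank3 and Pank4 (pantothenate kinases and a relative), Ppcs, Ppcdc and Coasy. These 7 of 18193 measured genes were followed through all of their probe sets, step by step from pantothenate to coenzyme A, in the fat pad beside the testis (epididymal white adipose tissue). They had 16 of the 34945 probe sets that name a single gene, and 1 further probe set was shared by Ppcs and the pseudogene Gm8465. The members were chosen by a measured value, since Coasy had already been seen among the larger rises in these same arrays, so its difference between genotypes is a description here and not a test of the choice.

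There were 4 LPA4-KO mice, males whose single copy of the X-linked gene Lpar4 is deficient (Lpar4 -/Y), and 4 wild-type (WT) male littermates, 1 Affymetrix array per mouse. All were of the C57BL/6 background, 12 weeks old and kept on standard chow. LPA4 binds lysophosphatidic acid, a lipid signal outside cells. Which part of Lpar4 was removed, and in which cells, is not given in the sources used here. Each difference below is between mice as labelled.

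The first step, phosphorylation of pantothenate by the pantothenate kinases, is the rate-limiting one and is inhibited by coenzyme A and its esters. Ppcs then joins cysteine to the product, Ppcdc removes its carboxyl group to give phosphopantetheine, and Coasy, a single protein with a pair of activities, adds the adenylyl group and the last phosphate. In white fat, coenzyme A is needed to activate fatty acids for storage or oxidation and, as acetyl-CoA, to build new ones.

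Values are deposited log2 signals. A group mean is given with its SD (n = 4), and a difference, LPA4-KO minus WT, with its SE from limma. A probe set was called varying if it spanned over 0.1 log2 across the 8 arrays, a span that includes any difference between genotypes. Only 22.1% of all genes did so in this table, and even bright probe sets could be flat, which means that a flat value is no measured lack of change. Of the 7 genes, 5 varied, and of their 16 probe sets 9 varied and 7 were nearly constant. Adjusted p is Benjamini-Hochberg over all 18193 genes for a gene, read from its probe set with the highest mean, and over all 34945 probe sets for a further probe set. A gene counts as having risen or fallen where its adjusted p was under 0.05.

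The targeted gene was lower in every LPA4-KO array at 1 of its 3 probe sets. Lpar4 at 1452424_at averaged 5.80 ± 0.05 in LPA4-KO fat and 6.52 ± 0.03 in WT fat (SD, n = 4 each, limma adjusted p = 0.0033). The other 2 were higher in LPA4-KO and did not pass. The difference was 0.68 ± 0.24 log2 at 1434186_at (limma adjusted p = 0.23) and 0.48 ± 0.25 log2 at 1439665_at (limma adjusted p = 0.39). Of the 3, 1439665_at had the highest mean, by which a gene is otherwise read here. The 3′ minus 5′ difference of the Gapdh control probe sets ran from 0.56 to 0.60 log2 in LPA4-KO and from 0.57 to 0.63 in WT arrays, and that of Actb from 1.21 to 1.33 in LPA4-KO and from 1.14 to 1.22 in WT arrays. The Actb difference was mostly higher in LPA4-KO arrays. Over the varying genes, the median correlation of an array with the others of its genotype ran from 0.9818 to 0.9858 in LPA4-KO and from 0.9734 to 0.9802 in WT arrays, so the WT arrays were less alike. The part of these quality values in the differences below was not tested.

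Among the synthesis genes, Coasy rose in LPA4-KO fat, 1.57-fold, and none of the other 6 passed the test over all genes. Of 7 genes 1 was higher and 0 were lower, where 0.863% of all genes were called higher. At the looser threshold of an unadjusted limma p under 0.05 there were 3 (Coasy, Ppcs and Pank2). The share of all genes under that threshold was not counted, and 0.863% is no measure of it. Since the pathway was chosen through this contrast, nothing is read from either count. Ppcs, the enzyme of the step after the kinases, was 1.16-fold higher with separate groups but did not pass. The kinase genes Pank1, Pank2 and Pank3 had differences of 0.16 to 0.29 log2 at the probe sets that represent them, with overlapping groups, and Pank4 and Ppcdc were nearly constant. The median difference over the 7 genes was 0.22 log2, beside 4e-05 over all genes, of which most are nearly constant, so these 2 medians are not alike in kind. Over the varying synthesis genes it was 0.26 log2, beside -0.026 over all varying genes. Neither pair is a test, for a set chosen through this contrast.

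**Figure D1:**
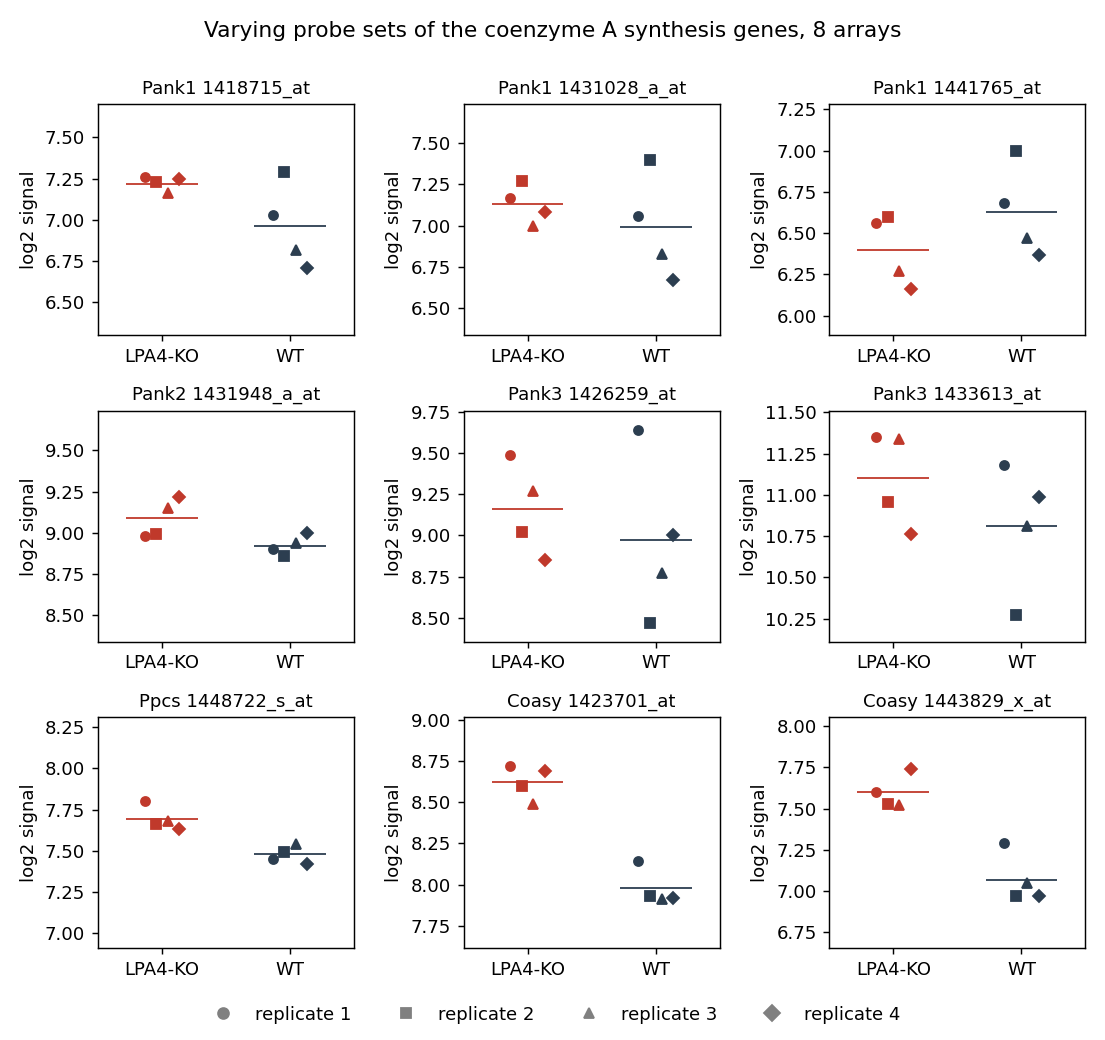
Log2 signal of the 9 varying probe sets of the synthesis genes in 4 LPA4-KO arrays (red, left) and 4 WT arrays (dark, right) of each panel; marker shapes are replicate numbers, horizontal lines are group means, and every y axis spans the same width. The groups are apart at both Coasy probe sets and at Ppcs, and overlap at the Pank probe sets.

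The kinase step came first in the pathway and showed the least regular differences. Pank1, a pantothenate kinase gene known as a PPAR-alpha target in liver, was represented by 1418715_at, which stood at 7.26, 7.23, 7.16 and 7.25 in LPA4-KO arrays, against 7.03, 7.29, 6.82 and 6.71 in WT arrays. The 4 LPA4-KO arrays lay close together, and the WT arrays spread around them, with WT replicate 2 above all LPA4-KO arrays and the other 3 below. The difference was 0.26 ± 0.13 log2 (limma adjusted p = 0.35).

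The further probe sets of Pank1 did not all point the same way. At 1431028_a_at the values were 7.17, 7.27, 7.0 and 7.08 in LPA4-KO and 7.06, 7.40, 6.83 and 6.67 in WT arrays, a difference of 0.14 ± 0.16 log2 (limma adjusted p = 0.73). At 1441765_at they were 6.56, 6.60, 6.27 and 6.16 in LPA4-KO and 6.68, 7.0, 6.47 and 6.37 in WT arrays, a difference of -0.23 ± 0.17 log2 (limma adjusted p = 0.55). The WT arrays kept the same order at all 3 probe sets, replicate 2 highest and replicate 4 lowest, so the probe sets ranked the WT mice alike while differing in the sign between genotypes. The remaining probe set, 1457110_at, was nearly constant. No direction between genotypes is therefore given for Pank1.

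Pank2, the kinase gene whose human counterpart is mutated in a neurodegeneration with iron in the brain, varied at 1 of its 3 probe sets. That probe set, 1431948_a_at, had 8.98, 8.99, 9.15 and 9.22 in LPA4-KO arrays, against 8.90, 8.86, 8.94 and 9.0 in WT arrays. LPA4-KO replicates 3 and 4 exceeded every WT array, and replicates 1 and 2 fell just under WT replicate 4. The difference of 0.16 ± 0.06 log2 did not pass (limma adjusted p = 0.26).

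Pank3, a pantothenate kinase gene with both of its probe sets varying, had the widest spread among mice of the synthesis genes. At 1433613_at the values were 11.35, 10.96, 11.34 and 10.76 in LPA4-KO arrays and 11.18, 10.27, 10.81 and 10.99 in WT arrays, a difference of 0.29 ± 0.24 log2 (limma adjusted p = 0.60). At 1426259_at they were 9.49, 9.02, 9.27 and 8.85 in LPA4-KO arrays and 9.64, 8.47, 8.77 and 9.0 in WT arrays, a difference of 0.19 ± 0.28 log2 (limma adjusted p = 0.79). Both probe sets put the mice of each genotype in the same order, with replicate 1 highest in each, and at both the groups overlapped. The SD between mice was 0.29 log2 in LPA4-KO and 0.39 in WT at 1433613_at, and 0.28 and 0.50 at 1426259_at. These were about as large as the difference between genotypes at the same probe set, or larger. Pank4, whose protein lacks pantothenate kinase activity in mammals, was nearly constant at its only probe set, 1435004_at.

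Pank1, Pank2 and Pank3 share a feature of position: each gene span holds a related microRNA gene, Mir107 in Pank1, Mir103-2 in Pank2 and Mir103-1 in Pank3. These microRNAs were not measured here. Their mature 3p strands from RefSeq (GRCm38.p6) are shown because they tie the kinase genes together by sequence, with the seed, bases 2 to 8, in capitals. The strand of Mir103-1 and Mir103-2 is the same, and that of Mir107 differs from it at a single base, G22C counted from the 5′ end.
mmu-miR-103-3p (within Pank2 at chr2:131288103-131288125, plus strand; within Pank3 at chr11:35782447-35782469, plus strand): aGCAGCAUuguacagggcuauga
mmu-miR-107-3p (within Pank1 at chr19:34820700-34820722, minus strand): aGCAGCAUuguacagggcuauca

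Ppcs, which ligates cysteine to phosphopantothenate, was read from 1448722_s_at. It stood at 7.80, 7.66, 7.68 and 7.63 in LPA4-KO arrays, against 7.45, 7.49, 7.54 and 7.42 in WT arrays. All LPA4-KO arrays lay above all WT arrays, by 0.22 ± 0.04 log2 between the means (1.16-fold), and the gene did not pass over all genes (limma adjusted p = 0.077). Separation of this kind was common in the table: in 14.4% of varying genes every LPA4-KO array lay above every WT array. The probe set shared with Gm8465, 1417473_a_at, was nearly constant at 6.60, so the difference was seen at 1 of the 2 probe sets that name Ppcs. Transcripts of the pseudogene could add to the signal of either.

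Promoter windows were listed in RefSeq for 6 of the 7 genes, Coasy being the other. The 250 bases before the listed start of Ppcs (GRCm38.p6, chr4:119422421-119422670, minus strand) are shown because Ppcs is the gene with a window whose genotypes were apart, with the letters CCGGAAG, of the kind bound by ETS factors, in capitals.
Ppcs: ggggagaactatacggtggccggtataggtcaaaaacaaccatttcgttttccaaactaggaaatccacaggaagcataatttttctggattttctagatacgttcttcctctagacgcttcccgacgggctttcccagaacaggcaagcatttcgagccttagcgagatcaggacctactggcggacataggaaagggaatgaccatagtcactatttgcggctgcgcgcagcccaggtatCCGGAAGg
Searched on both strands in windows of the same length, CCGGAAG was in 3 of the 9 windows of these genes, those of Ppcs, Pank2 and Pank3, and in 6.91% of all 32851 windows. The E-box CACGTG was in 0 of the 9 and in 6.02% of all. The motifs were chosen after the windows had been read, and a match is only a match of letters.

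Ppcdc, the decarboxylase of the pathway, was nearly constant at all 3 of its probe sets, 1424335_at, 1424336_at and 1430813_at. The widest span of a nearly constant probe set of the synthesis genes was 0.00193 log2, at 1430813_at. Nothing can be said of this step from these values.

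Coasy, which completes coenzyme A, was the synthesis gene with the largest difference, and both of its probe sets pointed the same way. At 1423701_at, which represents the gene, the values were 8.72, 8.60, 8.49 and 8.69 in LPA4-KO arrays, against 8.14, 7.93, 7.91 and 7.92 in WT arrays. Every LPA4-KO array exceeded every WT array, and WT replicate 1 stood above the other 3 WT arrays. The means were 8.62 ± 0.10 in LPA4-KO fat and 7.98 ± 0.11 in WT fat, a difference of 0.65 ± 0.07 log2 (1.57-fold, limma adjusted p = 0.029). Counted from the largest rise down, this difference ranked 30 among the 4029 varying genes, with larger falls not counted. The call rested on having all arrays: with 1 left out, the difference stayed between 0.62 and 0.70 log2, but the limma adjusted p was 0.070, 0.074, 0.063 and 0.068 on leaving out LPA4-KO replicates 1 to 4 in turn and 0.063, 0.074 and 0.071 on leaving out WT replicates 2 to 4. Of these 8 fits, the one that kept the call left out WT replicate 1 (limma adjusted p = 0.030). Calls fell over all genes too, from 239 with all arrays to between 9 and 88 with 1 left out. The 88 were called without WT replicate 1, so the loss of the call was not particular to Coasy.

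The second Coasy probe set, 1443829_x_at, carries the suffix that Affymetrix gives to sets whose probes may match other transcripts. It stood at 7.60, 7.53, 7.52 and 7.74 in LPA4-KO arrays, against 7.29, 6.97, 7.05 and 6.97 in WT arrays. The groups were again apart, and WT replicate 1 was again the highest of the WT arrays. The difference was 0.53 ± 0.09 log2 (1.45-fold) and did not pass over all probe sets (limma adjusted p = 0.060). In the fit of probe sets, 1 of the 16 passed, 1423701_at (limma adjusted p = 0.031), where 0.612% of all probe sets were called higher. Fitting varying probe sets alone, a setting taken over from earlier work on these data, called both Coasy probe sets and no other of these genes, where 8.35% were called higher. The filter on varying values is not independent of the difference, so this is no further test.

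**Figure D2:**
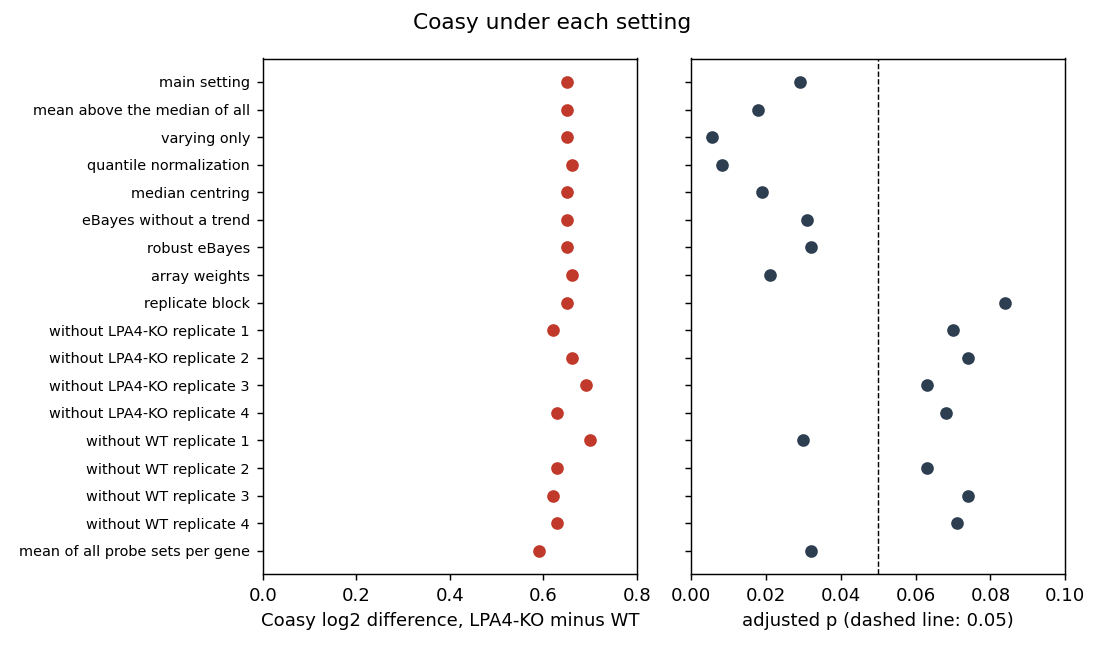
Coasy log2 difference, LPA4-KO minus WT (left), and its adjusted p (right) in each setting of the limma fit, one row per setting; the dashed line is the 0.05 threshold. The difference stays between 0.59 and 0.70 log2 while the adjusted p crosses the threshold in 7 of the 8 fits with 1 array left out and with the replicate block. The filters, the other variance models and the replicate block cannot move the difference itself.

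None of the genes measured next to Coasy on chromosome 11 passed the test. On the array the nearest 2 on one side were Hsd17b1 and Naglu, and on the other Mlx and Psmc3ip. Hsd17b1, Mlx and Psmc3ip were nearly constant. Naglu, a lysosomal enzyme gene, stood at 7.30, 7.31, 7.32 and 7.03 in LPA4-KO and 7.08, 6.83, 7.21 and 7.23 in WT arrays, overlapping, with a difference of 0.15 ± 0.11 log2 (limma adjusted p = 0.55).

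By Pearson correlation of levels over the 8 arrays, the 5 varying genes most like Coasy were Afg1l (0.994), Cyp2f2 (0.991), Hdhd2 (0.987), Ddt (0.987) and Ppm1m (0.986). The arrays fall into the 2 genotypes, so such values largely repeat the difference between them, and all 5 were higher in every LPA4-KO array. Afg1l ran from 7.13 to 7.19 in LPA4-KO and from 7.02 to 7.07 in WT arrays. It thus counted as varying only through the difference between genotypes. Ppcs reached 0.861, Pank1 0.668, Pank2 0.638 and Pank3 0.47. After the genotype means were removed, the 5 most alike were Bcat2 (0.981), Heatr6 (0.963), Atp8a1 (0.96), Gpt2 (0.957) and Afg1l (0.947). By that measure Ppcs stood at 0.0455 (rank 1734 among the varying genes) and Pank1 at 0.281 (rank 1147). Pank2 stood at -0.205 (rank 2413) and Pank3 at 0.217 (rank 1309). The 5 genes were picked as the highest by this same measure, so standing below them says nothing by itself. These are descriptions over 8 arrays that share their processing.

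Genes around the pathway were taken from a list of 38, of which 36 were measured and 20 varied. Of the 36, 1 was called higher and 0 lower, and the median difference was 0.00 log2. The called gene was Nudt19, which encodes a peroxisomal enzyme that hydrolyses coenzyme A, but its probe set was nearly constant, with a difference of 0.0045 log2 (limma adjusted p = 0.021). In the fit of varying genes alone, Vnn3, Nudt8, Ndufab1, Fasn and Acss2, 5 of the 20, were called higher and 0 lower, where 9.78% of varying genes were called higher. None of these 5 passed over all genes (limma adjusted p from 0.059 to 0.10). The filter keeps genes partly by the difference itself. The list was also chosen with earlier results of these data known, so nothing is read from these shares.

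**Figure D3:**
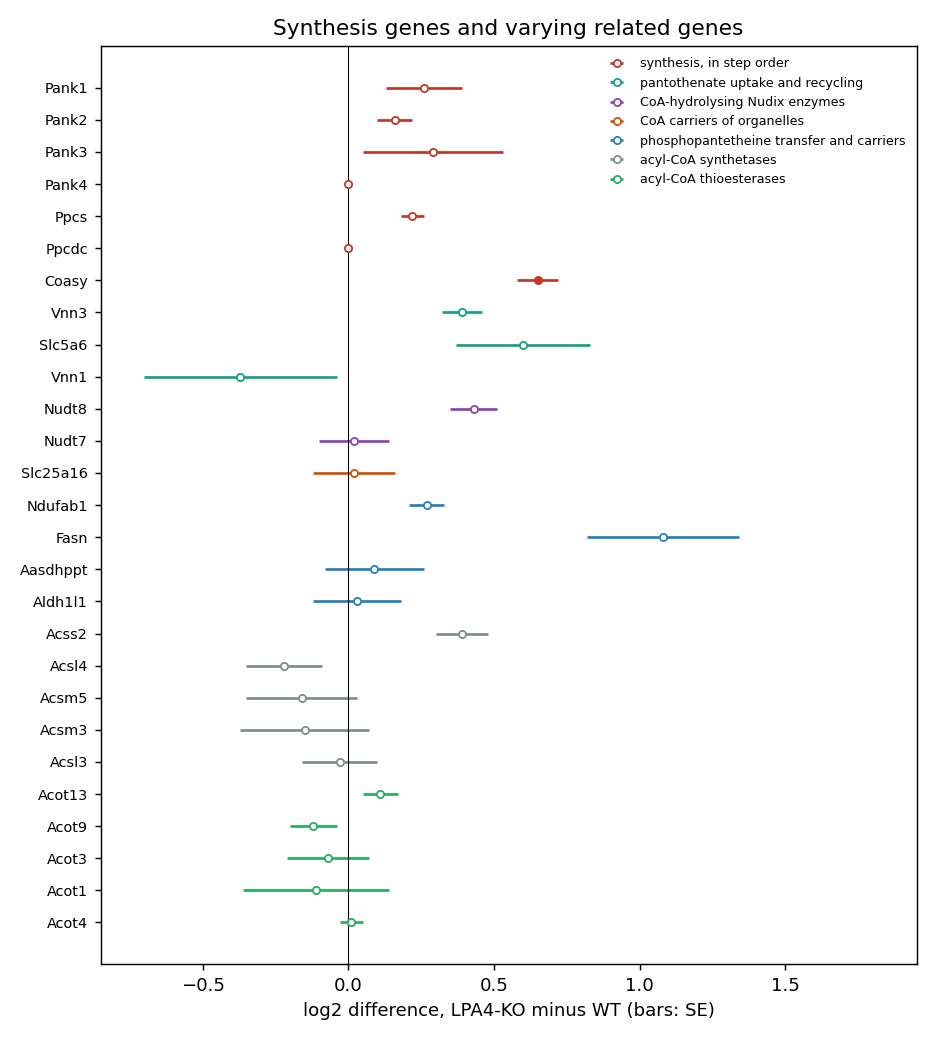
Log2 difference, LPA4-KO minus WT, with SE, for the 7 synthesis genes from the first step at the top to Coasy, followed by the 20 varying related genes coloured by list; filled points passed the test over all genes. Coasy is the filled point, Fasn has the largest difference with a wide error, and Pank4 and Ppcdc lie at 0 because they were nearly constant.

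Genes that supply or recycle pantothenate varied with different signs. Slc5a6, the sodium-dependent transporter of pantothenate and biotin, stood at 8.49, 8.15, 8.14 and 7.78 in LPA4-KO arrays, against 8.09, 7.32, 7.38 and 7.37 in WT arrays. WT replicate 1 lay within the LPA4-KO range and the other 3 WT arrays below it, a difference of 0.60 ± 0.23 log2 (limma adjusted p = 0.24). Vnn3, a pantetheinase gene whose product frees pantothenate from pantetheine, had 8.57, 8.64, 8.71 and 8.77 in LPA4-KO and 8.37, 8.29, 8.10 and 8.36 in WT arrays. Its groups were apart, with a difference of 0.39 ± 0.07 log2 (limma adjusted p = 0.066). Vnn1, the other pantetheinase gene, overlapped between genotypes and had a difference of -0.37 ± 0.33 log2 (limma adjusted p = 0.63).

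Among enzymes that break coenzyme A down, Nudt8, which acts in mitochondria, stood at 7.78, 7.73, 7.76 and 7.77 in LPA4-KO arrays, against 7.15, 7.53, 7.32 and 7.33 in WT arrays. The LPA4-KO arrays were tightly grouped above all WT arrays, with a difference of 0.43 ± 0.08 log2 (limma adjusted p = 0.059). Nudt7, its peroxisomal relative, differed by 0.02 ± 0.12 log2. The coenzyme A carriers Slc25a42 and Slc25a17 and Dcakd, which encodes a protein resembling the last domain of Coasy, were nearly constant.

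Of the proteins that carry the phosphopantetheine arm of coenzyme A, Fasn, the fatty acid synthase, had 10.32, 10.40, 9.91 and 10.98 in LPA4-KO arrays, against 8.90, 9.56, 9.51 and 9.32 in WT arrays. The groups were apart but wide, with a difference of 1.08 ± 0.26 log2 (limma adjusted p = 0.10). Ndufab1, the mitochondrial acyl carrier protein, had 11.22, 11.12, 11.15 and 11.30 in LPA4-KO and 10.84, 11.04, 10.94 and 10.89 in WT arrays, a difference of 0.27 ± 0.06 log2 without overlap (limma adjusted p = 0.079). Among enzymes that use or release coenzyme A, Acss2, the cytosolic acetyl-CoA synthetase, had 8.72, 8.69, 8.58 and 8.70 in LPA4-KO and 8.16, 8.54, 8.25 and 8.18 in WT arrays, a difference of 0.39 ± 0.09 log2 (limma adjusted p = 0.095). WT replicate 2 came within 0.1 log2 of the lowest LPA4-KO array. The other varying acyl-CoA synthetases, 4 in number, had negative differences, and the 5 varying thioesterases had 2 positive and 3 negative ones. Acot13, a thioesterase gene, differed by 0.11 ± 0.06 log2 with overlap. Acsf3 and Acot8 were nearly constant.

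The pad holds several cell types, and in such bulk tissue fewer cells of a type and less RNA per cell cannot be told apart. Of markers of other cells, 1 of 13 progenitor and fibroblast genes (Dpt) was called lower. In either direction, 0 of 12 mesothelial, 0 of 14 macrophage and 0 of 11 endothelial genes were called. Over all 18193 genes 239 were called, 157 of them higher, so few calls would be found in any lists of this size. The median difference of all varying genes was -0.026 log2. The mean over the 13 progenitor and fibroblast markers ran from 9.68 to 10.01 log2 in LPA4-KO and from 10.15 to 10.39 in WT arrays, without overlap, and 12 of 12 varying members had negative differences. The shares of all varying genes with such separation downward, or with a negative difference, were not counted. How unusual these marker values are is therefore unknown. The means of the mesothelial, macrophage and endothelial lists overlapped between genotypes. Over 12 mesothelial markers the mean ran from 7.32 to 7.79 in LPA4-KO and from 7.63 to 8.40 in WT arrays, with 11 of 11 varying members negative, and over 14 macrophage markers from 9.07 to 9.23 in LPA4-KO and from 9.19 to 9.42 in WT arrays, with 11 of 11 negative. The adipocyte markers overlapped, from 11.67 to 11.75 in LPA4-KO and from 11.51 to 11.73 in WT arrays, with 7 of 9 varying members positive and 0 of 13 called. Of 11 endothelial markers, 4 of 5 varying members were negative, with means from 8.49 to 8.63 in LPA4-KO and from 8.61 to 8.71 in WT arrays. Markers of the epididymis epithelium were nearly constant, with a mean of 6.28 in both genotypes. Log2 array signals have no zero, so no marker can be called absent. The part of these cell types in the difference of Coasy was not tested.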

How the data were processed

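RNA of epididymal fat from 4 LPA4-KO and 4 WT mice was hybridised, 1 array per mouse, and samples were grouped by the genotype and replicate number in their titles. The authors deposited 1 value per probe set and array, used here as log2 values: they ran from 5.27 to 14.07, with array medians from 6.50 to 6.51, and the scale was inferred from that. Per the submitters' processing notes, R 2.14.0 was used. How background, normalization and summarisation were done is not given in the sources used here. Of 45101 probe sets, 83.1% spanned at most 0.1 log2.

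The platform annotation named the probe sets (34945 with 1 gene), each gene was read from its probe set with the highest mean, and limma 3.58.1 in R 4.3.3 (lmFit, eBayes with trend, no filter, no block) compared all 18193 genes and, separately, all named probe sets. Alternatives were filters on level and on varying values, quantile normalization, median centring, other variance models, array weights, averaged probe sets, the replicate block and leaving out each array. The steps were tested on simulated data. The number of arrays limits the precision. The synthesis genes and all lists were chosen with earlier results of these data known. Named were all synthesis genes, of each related list the called genes and the 2 with the smallest p, the 5 genes most like Coasy by either measure, its 2 array neighbours on each side and Lpar4. Vnn1 and Nudt7 were added after their values were seen. Acsl1 and Acss3 were not analysed here.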

Additional observations from a re-analysis of the deposited data

Results flagged for a closer look

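In 6 of 66 groups of 4 arrays checked, 1 array stood apart from the other 3 by Dixon's 95% criterion, where chance gives about 1 in 20. In 4 of them it was WT replicate 1, the highest of its group: Coasy at 1423701_at was at 8.14 there against 7.91 to 7.93 in the other WT arrays, Slc5a6 at 8.09 against 7.32 to 7.38, Bcat2 at 7.17 against 6.86 to 6.91 and Heatr6 at 7.93 against 7.70 to 7.72. Bcat2 and Heatr6 had been chosen for following Coasy within a genotype, so they are not separate cases. The remaining 2 were in LPA4-KO replicate 4, with Acot13 at 9.46 against 9.32 to 9.34 and Naglu at 7.03 against 7.30 to 7.32 in the other LPA4-KO arrays. Without WT replicate 1 the Coasy difference was 0.70 log2 (limma adjusted p = 0.030).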

How the results depend on the processing

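The number of synthesis genes called, 1, became 2 among genes above the median level, where all 7 were kept and 495 of 9096 genes were called. It became 3 after quantile normalization, which called 9436 of all genes (8799 higher, against 157 of 239). With an array left out it was 0 to 1 (1 without WT replicate 1, otherwise 0), where 9 to 88 of all genes were called. The count of called probe sets, 1 of 16, stood beside 326 called of all 34945. It became 2 above the median level (595 of 17472 called), among varying probe sets (1259 of 6682) and with array weights (535 of 34945). After quantile normalization it was 7 of 16, where 19712 of all 34945 were called. With an array left out it was 0 to 2 (2 without WT replicate 1, otherwise 0), where 10 to 125 of all were called. Coasy differed by 0.62 to 0.70 log2 with an array left out. The count of related genes called, 1 of 36, became 4 above the median level, 5 among varying genes (859 of 4029 called) and 12 after quantile normalization. It was 0 after median centring (223 of all genes called), 2 with array weights (361) and 2 with the probe sets of a gene averaged (236). With an array left out it was 0 to 2 (2 without WT replicate 2, 1 without LPA4-KO replicate 4 or WT replicate 1, otherwise 0). With the replicate number as a block, Coasy differed by 0.65 log2 (limma adjusted p = 0.084) and all 3 counts were 0, as was the count over all genes, against 239. Arrays of the same number correlated, in deviations from the group means, at 0.0183, 0.0783, 0.242 and -0.182. LPA4-KO replicates 2 and 3 were most like the WT array of the same number, and replicates 1 and 4 were not. Correlations of expression cannot decide whether the mice were paired by litter or handling, so this stays unknown. The causes were not tested. Coasy lost its call in 8 settings, the replicate block and 7 of the 8 fits with an array left out (limma adjusted p from 0.063 to 0.084). For the other single genes and probe sets, none of which was called at first, 226 values stayed on their side of the threshold and 24 passed it. None changed sign, but the filters, the other variance models and the replicate block leave the difference itself unchanged. In those settings the sign could not change. With the probe sets of a gene averaged, Pank1 differed by 0.04 log2, against 0.26.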
